A study of Mus musculus with 12 samples.

Results

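The mitochondrial ribosomal protein genes were taken as the rows of the gene count tables whose symbol is Mrpl or Mrps followed by a number and, where there is one, a letter from a to c. This rule found 78 of the 24525 genes listed, and all 78 passed the filter on low counts, with 100 to 1739 reads each per library (median 477). By the structural naming of the mammalian mitochondrial ribosome, 51 encode proteins of the large subunit, among them Mrps18a and Mrps30 in spite of their symbols, and 26 encode proteins of the small subunit. The remaining member, Mrps36, was named as a ribosomal protein and is now known as a component of the 2-oxoglutarate dehydrogenase complex.

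Neural stem/progenitor cells (NSPCs), the dividing cells that give rise to neurons and glia, were grown as neurospheres from the forebrain of C57BL/6 mouse embryos at E14.5 and were sequenced at passage P1. Cultures were kept in DMEM/F12 with EGF, bFGF, N2 and B27 supplements and received no treatment. mRNA of 3 wild-type (WT 1 to 3) and 3 Ythdf2-/- cultures was sequenced as the input of an m6A immunoprecipitation, and the 6 immunoprecipitated samples of the series were not analysed here. The study calls the 3 of each genotype biological replicates. Ythdf2 is a reader protein that binds N6-methyladenosine (m6A) in mRNA and promotes decay of that mRNA. The Ythdf2-/- embryos carried a germline deletion of the 5′ UTR and exon 1, made by crossing floxed mice to mice with ubiquitous Cre, so every cell of the embryo lacked that segment. The comparison asked whether mRNA of the mitochondrial ribosome differs in level between the genotypes.

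The mitochondrial ribosome translates the few mRNAs made from mitochondrial DNA, all of which encode core proteins of the respiratory chain complexes and the ATP synthase. Its rRNAs come from the mitochondrial genome, while all of its proteins are encoded in the nucleus, made in the cytosol and imported. Many of these proteins descend from bacterial ribosomal proteins, and others were added in the mitochondrial lineage. By the structural naming, 46 of the 78 members are named as bacterial homologues and 32 carry names specific to mitochondria, the latter including Mrps36 and the paralogs Mrps18a and Mrps18b of a bacterial protein.

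The 6 libraries held 11029827 to 13185778 counted reads. Ythdf2 was at 71.7, 72.9 and 90.6 CPM (reads per 1000000 counted reads of the library) in the wild-type libraries and at 11.7, 15.1 and 10.96 in the Ythdf2-/- libraries, so the mean in the knockout was 16.02% of the wild-type mean. WT 3 stood apart from the other 5 libraries: on the first principal component (67.7% of the variance) it lay at 103, and the others lay between -33.4 and -3.86. The progenitor markers Fabp7 and Vim were abundant in all libraries. The summed level of 10 progenitor markers was 6794 and 6330 CPM in WT 1 and WT 2, 3900 CPM in WT 3 and 5187 to 7276 CPM in the knockout. Of the 10, however, 6 were highest in WT 3 and 3 were lowest there. In WT 3 the oligodendrocyte lineage list of 10 genes (8 tested) summed to 4210 CPM, against 1721 to 2222 CPM in the other libraries, and of the 8 tested 5 were highest and 3 lowest there. Mbp, a myelin protein gene, was at 568 CPM in WT 3 and at 1.19 to 8.80 CPM elsewhere. The neuronal list of 10 genes (9 tested) summed to 2099 CPM in WT 3 and to 1270 to 1520 CPM elsewhere, with 6 of the 9 highest and 1 lowest in WT 3. The astroglial list of 10 summed to 13996 CPM in WT 3 and to 4600 to 11524 CPM elsewhere, with 4 of the 10 highest in WT 3. Microglial, endothelial, mesenchymal and erythroid lists summed to at most 13.9, 4.36, 55.4 and 1.72 CPM, with Ptprc, Cldn5 and the 5 hemoglobin genes at 0 reads in every library. Of these, the mesenchymal list (51.5 to 55.4 CPM in wild type, 24.6 to 30.7 CPM in Ythdf2-/-) and the microglial list (10.1 to 13.9 and 6.38 to 7.86 CPM) were lower in all 3 knockout libraries than in any wild-type library, and their part in the members' values was not tested. Reads of 4 Y-linked genes numbered 1111, 1638 and 2147 in WT 1, WT 2 and 1 Ythdf2-/- library and at most 1 in the others, so libraries with and without them were not balanced between the genotypes. With a term for the presence of these reads in the fit, 72 of 78 members had a fold change above 0. Their median was 0.27, beside 0.005 over all genes, and 0 passed an adjusted p of 0.05 in edgeR's test. WT 3 was the only wild-type library without these reads, so within wild type the term sets WT 3 apart from WT 1 and WT 2. In the fit without this term and without WT 3, 16 of 78 members were above 0, with a median of -0.11. The labels describe WT 3 as they do the other wild-type cultures. Ncapd2, a condensin subunit gene used in cell division, was at 301, 287 and 39.2 CPM in the wild-type libraries and at 211 to 314 CPM in Ythdf2-/-, and whether WT 3 was dividing like the other cultures was not tested. The main results that follow are therefore given with and without WT 3.

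The members together took 0.229% to 0.379% of all counted reads. Their summed level was 3790, 3713 and 2287 CPM in WT 1, WT 2 and WT 3, and 3538, 3395 and 3484 CPM in the 3 Ythdf2-/- libraries. The low value of WT 3 set the wild-type spread, 3263 ± 847 CPM (SD, n = 3), while the knockout libraries lay close together at 3472 ± 72.3 CPM (SD, n = 3). Against WT 1 and WT 2 alone (3751 ± 54.6 CPM, SD, n = 2), the knockout mean was 7.45% lower, and each of the 3 knockout libraries lay under both. Because the samples are bulk RNA, fewer cells of a type and less RNA per cell cannot be told apart in any of these values.

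**Figure D1:**
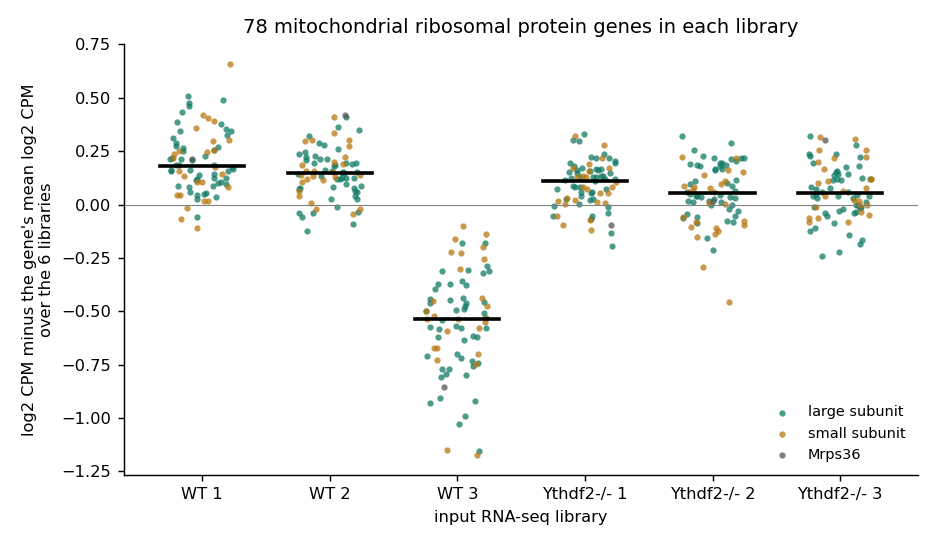
Level of each of the 78 genes in each input library, as log2 CPM minus the gene's own mean over the 6 libraries; each point is a gene and black bars are medians. The median of WT 3 sits at -0.53, and the medians of the other 5 libraries sit between 0.05 and 0.18.

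All 78 members were lower in WT 3 than the mean of WT 1 and WT 2, at a median of 62.4% of that mean (range 32.1% for Mrps28 to 86.8% for Mrps21). WT 3 was the lowest of the 6 libraries for 76 of 78 members, which compares with 35.4% of all 13112 genes tested. Mrpl24 and Mrps6 were the exceptions, each lowest in 1 of the Ythdf2-/- libraries. The difference was uneven: 13 members were at under 50% of the WT 1 and WT 2 mean, 56 at 50% to 75% and 9 at 75% to 90%. The large subunit stood at 58.9% by summed CPM and the small subunit at 65.7%. Mrpl12, the stalk protein of the large subunit through which translation factors are recruited, was among the 13, at 112 and 105 CPM in WT 1 and WT 2 and 36.4 CPM in WT 3. Mrps27, a small-subunit protein with pentatricopeptide repeats, was at 52.3 and 48.1 CPM against 17.3 CPM. Among members with a shallow difference, Mrps12, the homologue of the bacterial decoding-center protein, was at 21.5 CPM in both WT 1 and WT 2 and at 18.2 CPM in WT 3. The part of the marker gene shifts of WT 3 in these values was not tested.

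The level per transcript length varied 19.2-fold between members. Expressed as reads per kilobase of deposited gene length and per 1000000 counted reads (RPKM, mean of 6 libraries), the median member was at 34.1 RPKM, 19 members were over 50 RPKM and 5 were under 10 RPKM. Mrps6, a small-subunit protein of bacterial descent, had the highest level at 129.9 RPKM (range over libraries 92.7 to 169), and it shares exon bases with Slc5a3. It was followed by Mrps21 at 124.3 RPKM and by 4 large-subunit genes, Mrpl42 at 121.1 RPKM, Mrpl20 at 94.2 RPKM, Mrpl30 at 91.6 RPKM and Mrpl12 at 91.2 RPKM. The lowest levels belonged to Mrps25 at 6.76 RPKM, Mrpl19 at 7.04 RPKM, Mrpl57 at 7.10 RPKM and Mrpl35 at 8.76 RPKM. All 4 have deposited lengths of 2321 to 6065 bases, against a median of 1036 over the members, so the length used weighs on their place in the order. In that order no 2 neighbors had separate ranges over the 6 libraries, and without WT 3 only 5 of 77 neighboring pairs did. A shift of a whole library widens such ranges without changing the order of the members within it.

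**Figure D2:**
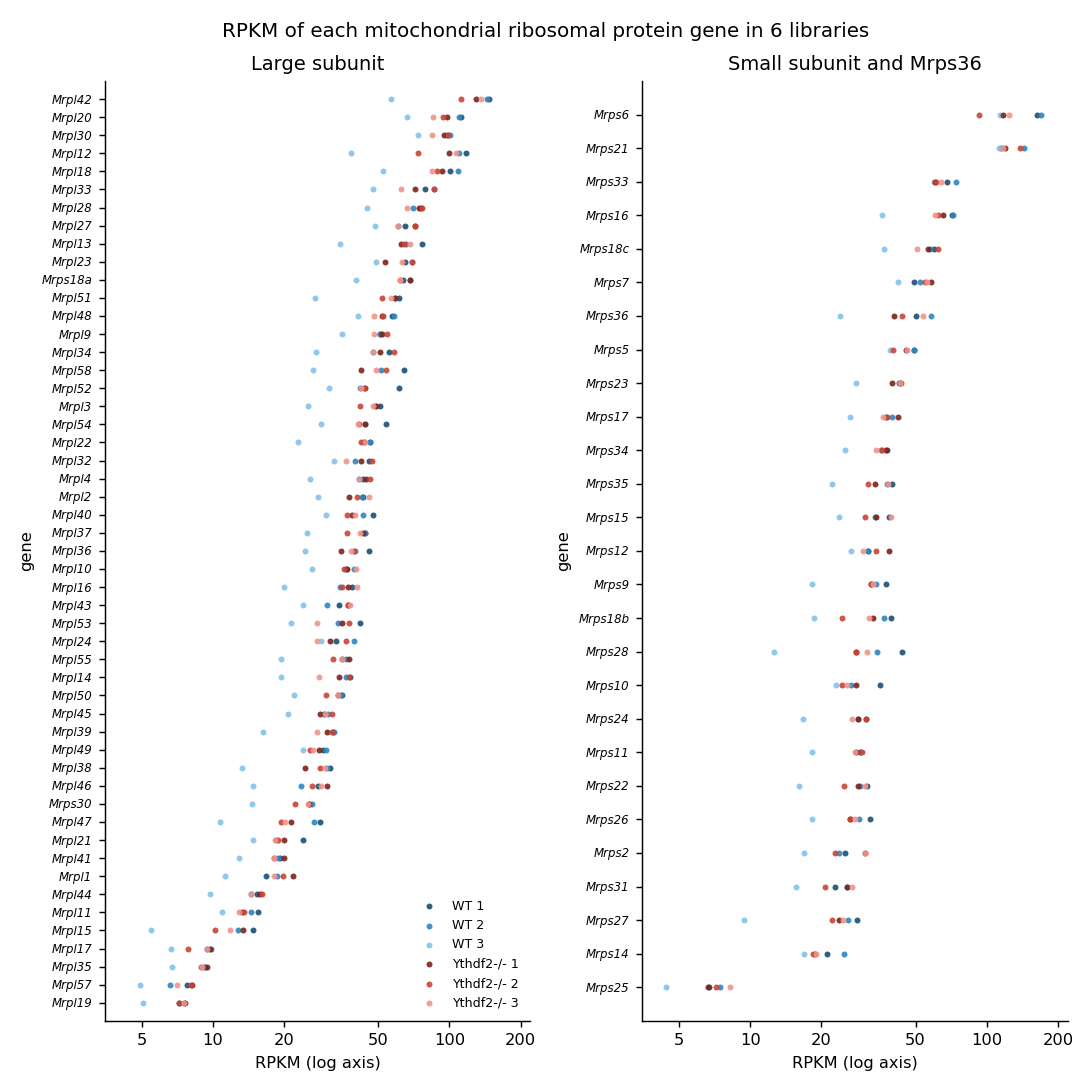
RPKM (log axis) of every member in each of the 6 libraries, sorted by mean level within the large subunit (left) and the small subunit with Mrps36 (right). Each point is a library; blue points are wild type, red points are Ythdf2-/-, and the pale blue point of WT 3 lies leftmost for 76 of 78 genes.

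The order of the members was shared by the libraries. Across the 78 members, Spearman's rho between CPM of 2 libraries was 0.943 to 0.971 for the 10 pairs without WT 3 and 0.871 to 0.907 for the 5 pairs with it. These values describe genes within libraries of similar depth, and genes are not independent replicates. Over the 5 libraries other than WT 3, the coefficient of variation of a member had a median of 8.69%, against 15.4% over all genes tested. The 2 sets were not matched for level, with a median of 34.1 RPKM for the members and 11.1 RPKM over all genes tested. Mrpl35, Mrps11 and Mrpl19 varied little, at 2.54%, 2.78% and 3.20%, and Mrps6 varied most, at 24.2%. The 5 libraries span both genotypes, and within the Ythdf2-/- libraries alone the value of Mrps6 was 14.9%.

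No member was called different between Ythdf2-/- and wild type. With all 6 libraries, edgeR's quasi-likelihood test gave 0 of 78 members at an adjusted p under 0.05, as for 0.0% of all genes tested, Ythdf2 included. At an unadjusted p under 0.05 there were also 0 of 78 members, where 3.63% of all genes passed. The fold changes (log2, Ythdf2-/- over wild type) ran from -0.43 to 0.35 with a median of 0.11, beside a median of -0.01 over all genes, and their standard errors ran from 0.13 to 0.43. Of the 78 members 60 had a value above 0, a sign shared by 48.1% of all genes. The groups did not overlap for 2 members (2.56%), Mrps7 and Mrpl43, beside 9.9% of all genes. The 2 subunits had the same median of 0.11, with 41 of 51 large-subunit and 18 of 26 small-subunit members above 0.

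Without WT 3 the direction of most members turned, and again no member was called. With 2 wild-type and 3 Ythdf2-/- libraries, 62 of 78 members were lower in the knockout and 16 were above 0, where 51.7% of all genes were above 0. The fold change was lower without WT 3 for all 78 members. Its median moved from 0.11 to -0.11 on the log2 scale, and the standard errors shrank to a range of 0.09 to 0.19. edgeR's quasi-likelihood test called 0 members at an adjusted p under 0.05 (lowest adjusted p 0.194), beside 0.0151% of all genes, which is 2 genes. At an unadjusted p under 0.05, 6 members were lower (7.69%), close to the 8.58% of all genes that were lower by that rule. Both wild-type libraries lay above all 3 knockout libraries for 27 members (34.6%), beside 18.8% of all genes, and under them for 2 members (2.56%), beside 19.5% of all genes. The direction of the whole group therefore rested on WT 3, and no single member's difference passed the test with or without it. With the spread seen between the wild-type libraries, a p over the threshold does not show that a member's level was equal in the genotypes.

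**Figure D3:**
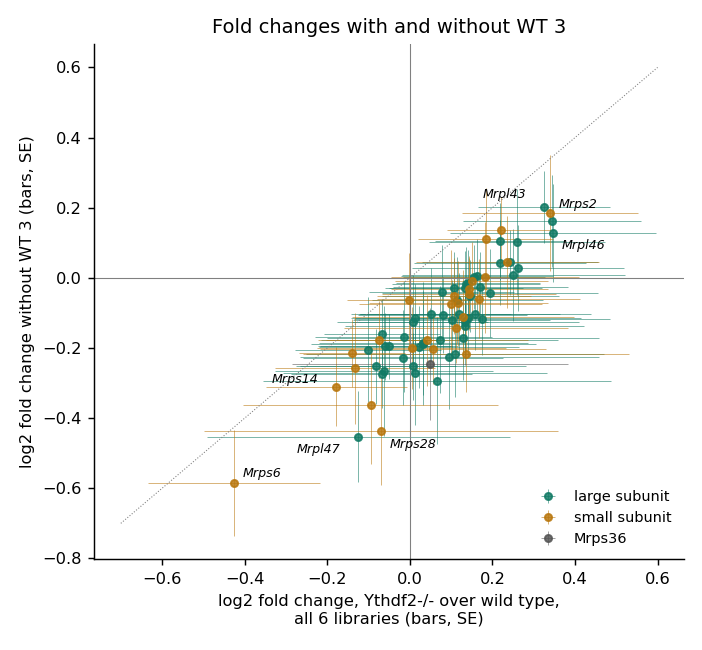
Log2 fold change (Ythdf2-/- over wild type) of each member with all 6 libraries (x axis) and without WT 3 (y axis); bars are standard errors and the dotted line marks equal values. All 78 points lie under the dotted line, and 16 of 78 lie above 0 on the y axis.

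The members with the largest positive fold changes were Mrpl46, Mrpl1, Mrps2, Mrpl43 and Mrpl16. Mrpl46, a protein of the large subunit that bacteria lack, was at 28.8, 24.3 and 15.2 CPM in wild type and at 31.1, 26.9 and 29.6 CPM in Ythdf2-/-. The groups overlapped, since WT 1 lay within the knockout range, and the fold change was 0.35 ± 0.25 (SE, adjusted p = 0.999 in edgeR's test) with WT 3 and 0.13 ± 0.14 without it. Mrpl1, of the mobile stalk beside the tRNA exit site, was at 26.4, 29.3 and 17.9 CPM against 34.5, 31.2 and 28.6 CPM (0.34 ± 0.21, SE, and 0.16 without WT 3). Mrps2, a small-subunit protein of bacterial descent, was at 51.3, 48.2 and 34.4 CPM against 62.3, 46.4 and 62.0 CPM (0.34 ± 0.21, SE, and 0.18 without WT 3), with the second knockout library inside the wild-type range. Mrpl16 was at 43.6, 38.8 and 22.6 CPM against 41.8, 39.4 and 45.8 CPM, and its fold change of 0.26 became 0.03 without WT 3.

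Mrpl43 and Mrps7 were the pair whose genotypes did not overlap. Mrpl43, a large-subunit protein, was at 41.5, 36.9 and 29.3 CPM in wild type and at 45.2, 45.1 and 45.9 CPM in Ythdf2-/-. All 3 knockout libraries lay above every wild-type library, by a fold change of 0.33 ± 0.16 (SE), or 0.20 ± 0.10 without WT 3, the largest among the members in that fit. Mrps7, a protein that contacts the small-subunit rRNA early in assembly, was at 65.5, 69.0 and 55.6 CPM against 77.2, 72.3 and 74.1 CPM (0.22 ± 0.13, SE, and 0.14 ± 0.09 without WT 3). Mrpl43 shares 385 exon bases with Twnk and Mrps7 shares 119 with Mif4gd, both on the opposite strand. The libraries were stranded, but the strand setting of the counting is not given in the sources used here, so the counts of both genes are uncertain to that extent. In all, 12 members share exon bases with another gene, from 14 bases (Mrpl53 and Ccdc142) to 3547 (Mrps25 and Nr2c2). The other 8 of these are Mrpl19, Mrpl24, Mrpl48, Mrpl49, Mrps18b, Mrps23, Mrps27 and Mrps6, and the fold changes of the 12 ran from -0.43 to 0.33, with 7 above 0, or 4 without WT 3. Twnk, which encodes the mitochondrial DNA helicase, had a fold change of 0.21, and Mif4gd one of -0.19 (0.18 and -0.12 without WT 3).

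Mrps6 had the most negative fold change of all members. It was at 127.0, 131.9 and 88.7 CPM in wild type and at 91.4, 72.3 and 96.9 CPM in Ythdf2-/-, a mean of 116 ± 23.7 against 86.9 ± 12.9 CPM (SD, n = 3). WT 1 and WT 2 lay above all knockout libraries, whereas WT 3 lay among them. The fold change was -0.43 ± 0.21 with all libraries (edgeR p = 0.0837, adjusted p = 0.999, exact two-sided permutation p = 0.3, where 0.1 is the smallest that 3 against 3 libraries allow) and -0.58 ± 0.15 without WT 3 (edgeR p = 0.00782, adjusted p = 0.194). Slc5a3, a sodium-coupled myo-inositol transporter gene, lies on the same strand as Mrps6 and shares 145 exon bases with it. Its level followed a similar course, at 166, 155 and 102 CPM in wild type and 118, 95.8 and 105 CPM in Ythdf2-/-, with a fold change of -0.42 with WT 3 and -0.61 without it. Reads from the shared bases cannot be assigned to either gene by position, and how they were counted is not given in the sources used here.

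The next lowest fold changes were those of Mrps14, Mrps33, Mrps10 and Mrpl47, at -0.18, -0.14, -0.13 and -0.13. Mrpl47, the homologue of a bacterial protein near the exit of the peptide tunnel, was at 24.8, 23.4 and 9.34 CPM in wild type and at 18.7, 16.9 and 17.6 CPM in Ythdf2-/-. WT 1 and WT 2 lay above the knockout libraries and WT 3 lay far under them, which gave -0.13 ± 0.37 (SE) with WT 3 and -0.45 ± 0.13 without it. Mrps28, a small-subunit protein, had the same arrangement, with 31.8, 24.8 and 9.07 CPM against 20.3, 20.2 and 22.6 CPM, and its fold change moved from -0.07 to -0.44. Mrps14, a protein of the small-subunit head, was at 41.8, 48.9 and 33.3 CPM against 36.8, 36.3 and 37.5 CPM (-0.31 without WT 3). Mrps33 was at 65.9, 71.3 and 58.0 CPM against 58.2, 58.9 and 61.6 CPM, and Mrps10 at 36.3, 27.3 and 23.7 CPM against 28.7, 25.2 and 26.4 CPM. In both genes WT 3 lay under the knockout libraries and WT 1 above them, and the fold changes without WT 3 were -0.21 and -0.26. Mrpl20 and Mrpl18, both of bacterial descent and both in the large subunit, reached -0.28 and -0.25 without WT 3. With Mrps6, Mrpl47, Mrps28 and Mrps14, these were the 6 members that passed an unadjusted p of 0.05 in edgeR's test without WT 3. After adjustment over all genes their p was 0.194 to 0.271 in that test.

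**Figure D4:**
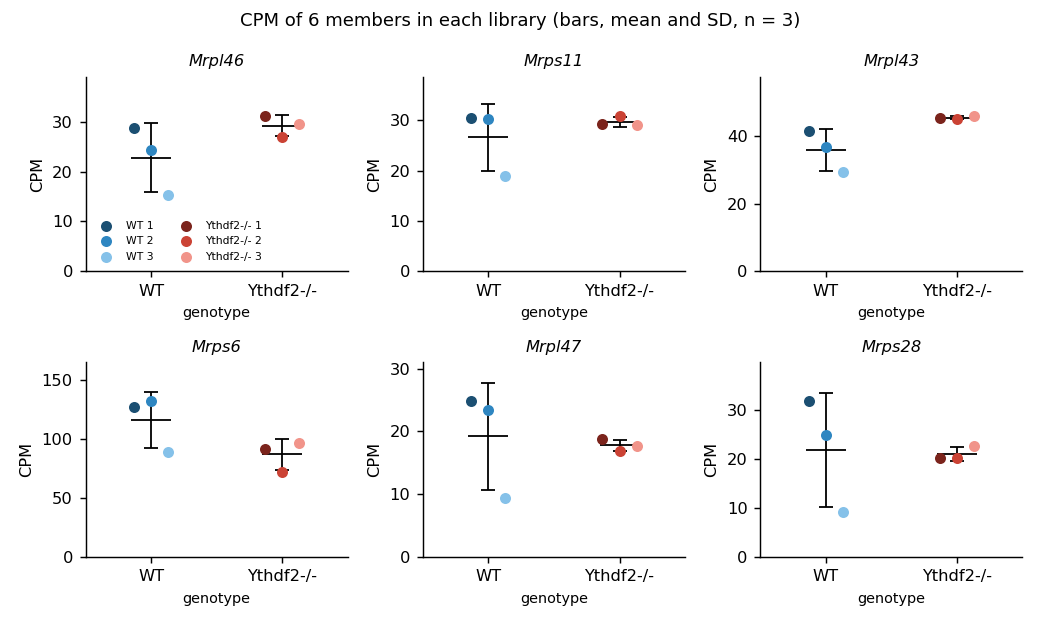
CPM of Mrpl46, Mrps11, Mrpl43, Mrps6, Mrpl47 and Mrps28 in the 3 wild-type (blue) and 3 Ythdf2-/- (red) libraries; black bars are mean and SD (n = 3). WT 3 is the lowest point for every gene shown but Mrps6, whose lowest point is the second Ythdf2-/- library at 72.3 CPM.

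The 3 paralogs Mrps18a, Mrps18b and Mrps18c, descend from 1 bacterial small-subunit protein. Mrps18a, whose protein sits in the large subunit, was at 60.8 RPKM (range over libraries 40.4 to 68.4), Mrps18c at 53.9 RPKM (36.7 to 61.9) and Mrps18b at 30.7 RPKM (18.7 to 39.4). Across libraries the range of Mrps18c overlapped those of the other paralogs. Within each library Mrps18c lay above Mrps18b and under Mrps18a, though almost level with Mrps18a in the second Ythdf2-/- library. Mrps18b was at 41.5, 38.6 and 19.7 CPM in wild type and at 34.9, 25.6 and 33.6 CPM in Ythdf2-/-. Its fold change of -0.10 ± 0.31 (SE) became -0.36 ± 0.17 without WT 3, while those of Mrps18a and Mrps18c moved from 0.15 to -0.05 and from 0.12 to -0.07. None of the 3 passed the test in either fit. Mrps36 was at 36.0, 41.4 and 17.1 CPM against 29.0, 31.3 and 38.2 CPM, with a fold change of 0.05 ± 0.33 and of -0.25 ± 0.16 without WT 3.

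A large share of the members begin beside another gene. In the RefSeq annotation of GRCm38.p6, 29 of 78 members (37.2%) had a gene starting on the opposite strand within 1000 bases upstream of their own start, beside 15.6% of 13077 tested genes. For 24 of the 29 the starts were at most 250 bases apart, and the median distance was 128 bases. Mrpl46 and Mrps11, a large-subunit and a small-subunit gene on chromosome 7, start 42 bases from each other. Mrps11 was at 30.5, 30.3 and 18.9 CPM in wild type and 29.2, 30.9 and 29.0 CPM in Ythdf2-/-, and its fold change was 0.14, or -0.05 without WT 3. Other members share their start region with genes of the same compartment, such as Mrps27 with Ptcd2, a mitochondrial RNA-processing gene 108 bases away, and Mrpl47 with Ndufb5, a complex I subunit gene 308 bases away. In WT 3, Ptcd2 and Ndufb5 were at 45.2% and 51.4% of the WT 1 and WT 2 mean, and Mrps27 and Mrpl47 at 34.5% and 38.7%. Mrpl57 and Mrpl27 face genes of cell division and DNA repair, Ska3 (76 bases) and Eme1 (48 bases). Those neighbors were at 9.08% and 7.25% in WT 3, while Mrpl57 and Mrpl27 were at 68.5% and 76.9%. Of the 28 neighbors tested, 20 were lower in WT 3 than the WT 1 and WT 2 mean. The median over all 28 was 76.7% of that mean, beside 100.2% over all genes tested. Mrpl46 and Mrps11, both members, are themselves among the 28. Spearman's rho between member and neighbor was 0.22 for the WT 3 percentage and 0.21 for the fold change. These are 28 pairs from the same libraries, in which the pair of Mrpl46 and Mrps11 enters once from each side.

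The start regions of 5 members are shown for the motif letters they hold. They were read 5′ to 3′ on the member's strand from the RefSeq GRCm38.p6 genome and end at the base before the member's annotated start, and for the first 3 they also begin at the base after the neighbor's start. Capitals mark matches on either strand to 1 of 4 motifs, which are GCGCANGCG for NRF1, CCGGAAG for ETS factors, AANATGGC for YY1 and GGGCGG for SP1. Mrpl46 and Mrps11 are printed as the closest pair of members, Mrps27 and Mrpl57 for a mitochondrial and a cell-division neighbor, Mrpl12 for its low value in WT 3, and Mrps6 for the most negative fold change.

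Mrpl46, facing Mrps11, chr7:78783090-78783130, minus strand, 1 SP1 match: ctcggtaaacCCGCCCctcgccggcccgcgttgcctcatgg

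Mrps27, facing Ptcd2, chr13:99344679-99344785, plus strand, 1 ETS match: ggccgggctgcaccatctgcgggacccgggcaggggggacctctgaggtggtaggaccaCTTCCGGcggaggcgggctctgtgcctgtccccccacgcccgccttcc

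Mrpl57, facing Ska3, chr14:57826164-57826238, plus strand, 1 NRF1 match: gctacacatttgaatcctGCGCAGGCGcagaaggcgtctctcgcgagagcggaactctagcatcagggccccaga

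Mrpl12, chr11:120484437-120484636, plus strand, 1 NRF1 match: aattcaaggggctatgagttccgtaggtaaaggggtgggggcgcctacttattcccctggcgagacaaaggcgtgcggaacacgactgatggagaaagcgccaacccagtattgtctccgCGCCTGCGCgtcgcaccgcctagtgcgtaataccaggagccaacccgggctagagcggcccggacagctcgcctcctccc

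Mrps6, chr16:92058136-92058335, plus strand, 4 SP1 matches, 2 of which overlap: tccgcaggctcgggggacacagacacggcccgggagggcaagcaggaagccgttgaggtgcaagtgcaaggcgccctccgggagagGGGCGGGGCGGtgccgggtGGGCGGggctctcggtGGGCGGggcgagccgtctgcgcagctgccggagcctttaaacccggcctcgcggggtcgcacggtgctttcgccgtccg

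Over windows from 250 bases before to 50 bases after the start, 69 of the 78 members had a RefSeq promoter entry. The NRF1, ETS and YY1 letters were each more frequent in the members than in tested genes, and the SP1 letters less frequent. NRF1 letters were in 16 of 69 members (23.2%), beside 15.3% of tested genes and 7.03% of all promoters. ETS letters were in 26 (37.7%), beside 19.7% and 9.93%. YY1 letters were in 21 (30.4%), beside 9.81% and 6.96%, and in 16 of these 21 the match reached past the start into the transcribed part. SP1 letters were in 34 (49.3%), beside 69.6% and 38.2%. At least 1 of NRF1, ETS and YY1 was found in 48 of 69 members (69.6%), beside 37.6% of tested genes. A match describes letters only, and binding of these factors was not measured.

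The members' transcripts are short. Their deposited gene length had a median of 1036 bases, beside 2938 bases over all genes tested. Length and fold change without WT 3 had a Spearman's rho of 0.33 over the 78 members, beside 0.26 over 13112 genes, values that come from the same 5 libraries. GGACT, a common form of the sequence in which m6A is placed, occurred a median of 1.01 times per kilobase in member transcripts and 1.04 times in all tested transcripts. In total 13 of 78 members (16.7%) held no GGACT, beside 6.56% of tested genes with a transcript sequence. Mrps25, Mrps26 and Mrpl3 held the most, 7 each. Across the 78 members GGACT per kilobase and the fold change without WT 3 had a Spearman's rho of 0.02, and whether these sites carry m6A was not analysed here.

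Summed over each list, the other genes of mitochondrial translation were also lower in WT 3 than in WT 1 and WT 2. The 5 subunit genes that carry other symbols (Dap3, Ptcd3, Aurkaip1, Chchd1 and Gadd45gip1) summed to 377, 362 and 236 CPM in wild type and to 369, 339 and 344 CPM in Ythdf2-/-, and WT 3 was lowest for all 5. Chchd1 and Aurkaip1, the most abundant per length at 118 and 49.9 RPKM, stood at 46.7% and 64.4% of the WT 1 and WT 2 mean in WT 3. The 13 translation factors summed to 576, 576 and 367 CPM and to 572, 529 and 610 CPM, with 10 of 13 lowest in WT 3. Tufm, the elongation factor that brings aminoacyl-tRNA to the ribosome, was at 141, 142 and 76.2 CPM in wild type against 154, 126 and 167 CPM. Gfm1, the translocation factor, stood at 41.7% in WT 3. The 26 genes of ribosome assembly and rRNA modification were shifted less, with WT 3 at 85.5% of the WT 1 and WT 2 sum and lowest for 13 of 26. Dhx30, an RNA helicase of that list, was at 122 and 118 CPM in WT 1 and WT 2 and at 128 CPM in WT 3, while Mpv17l2, a membrane protein of the same list, stood at 58.1%.

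In these 3 lists no gene passed an adjusted p under 0.05 in edgeR's test. At an unadjusted p under 0.05 in that test 1 gene passed, of the 26 assembly genes, where 3.63% of all genes passed. Ddx28, an RNA helicase of large-subunit assembly, was at 13.8, 10.5 and 10.97 CPM in wild type and at 17.2, 15.8 and 16.04 CPM in Ythdf2-/-. Its fold change was 0.46 ± 0.19 (SE, adjusted p = 0.999 in edgeR's test), or 0.41 without WT 3. Ddx28 was 1 of 2 assembly genes whose groups did not overlap, as was 1 of 13 translation factors, beside 9.9% of all genes. The median fold changes were 0.13, 0.14 and 0.06 for the subunits under other symbols, the translation factors and the assembly genes, and -0.03, -0.05 and 0.01 without WT 3. Mitochondrial transcription and RNA handling genes (16) had medians of 0.09 and 0.01, and 10 regulators of mitochondrial biogenesis had medians of -0.07 and -0.17. Hsd17b10, a subunit of mitochondrial RNase P, and Slirp, an mRNA-stabilizing protein, led the former list at 56.4 and 49.3 RPKM, with fold changes of 0.09 and -0.07 (0.10 and -0.24 without WT 3). Yy1 and Myc led the latter at 30.6 and 26.8 RPKM, with -0.14 and -0.05 (-0.21 and -0.12 without WT 3). None of these 26 genes was at an unadjusted p under 0.05 with all libraries.

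Beside the members, 2 large groups are given, the nuclear genes of the respiratory chain and ATP synthase and those of the cytosolic ribosome. The 81 nuclear genes of oxidative phosphorylation (77 tested) summed to 17616, 18123 and 8868 CPM in wild type and 16200, 14432 and 17566 CPM in Ythdf2-/-, so that WT 3 stood at 49.6% of WT 1 and WT 2, against 61.0% for the members. Their median fold change was 0.09 with WT 3 and -0.15 without it, when 75 of 77 were lower in the knockout. Atp5b and Atp5k, subunits of the ATP synthase and the most abundant per length, stood at 34.2% and 56.9% in WT 3, with fold changes of 0.09 and 0.10 (-0.27 and -0.12 without WT 3). The 87 cytosolic ribosomal protein genes (79 tested) stood at 70.4% in WT 3 by their sum, and 39 of 79 were lowest there. Their median fold change was -0.09 with WT 3, with 70 of 79 under 0, and -0.23 without it, with 79 of 80 under 0, where the members had medians of 0.11 and -0.11. Rps29 and Rpl41, their most abundant genes per length, stood at 51.2% and 60.7%, with fold changes of 0.04 and -0.15 (-0.21 and -0.35 without WT 3). Their libraries were spread otherwise: the second Ythdf2-/- library summed to 42110 CPM, near WT 1 at 42599 CPM, while the other 2 were at 33889 and 30384 CPM. The highest of the 3 knockout libraries was 38.6% above the lowest for the cytosolic list and 4.21% above it for the members.

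**Figure D5:**
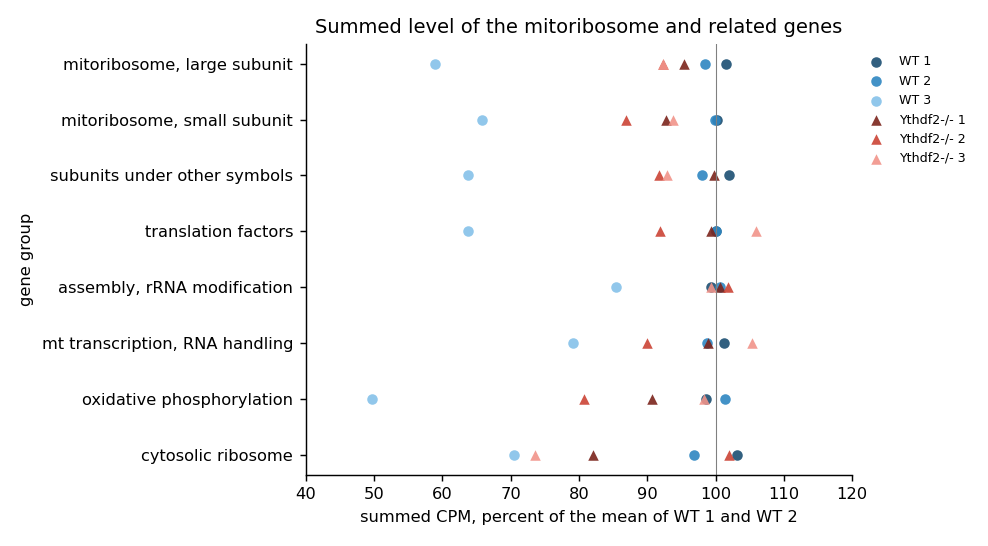
Summed CPM of 8 gene groups in each library, as a percentage of the mean of WT 1 and WT 2 for that group; circles are wild-type and triangles Ythdf2-/- libraries. WT 3 is the leftmost point in each of the 8 groups plotted, from 49.6% for oxidative phosphorylation to 85.5% for assembly genes; the biogenesis regulators, whose lowest sum was 421 CPM in the second Ythdf2-/- library beside 425 CPM in WT 3, are not plotted.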

How the data were processed

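The members, gene lists and tests were chosen with earlier results of these data known. Poly(A) mRNA was fragmented to about 100 nucleotides, and libraries were made with a stranded TruSeq kit. The authors aligned reads to mm10 (TopHat is named in their methods and in the deposited count headers) and deposited raw read counts per gene, for which the submitters' notes name featureCounts. They also deposited expected counts, TPM and FPKM made per library by RSEM 1.2.15 with Bowtie2 2.2.9. The deposited expected counts summed to 1.97% to 2.40% of the raw counts, and 200 of the 468 member values were 0, so the raw counts were the basis here and FPKM served only as an alternative (log2 of FPKM plus 1 or plus 0.1, in limma). TPM served only as an alternative for the summed level. Gene lengths came from the deposited FPKM tables.

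Raw counts of 24525 genes in 6 libraries were filtered with filterByExpr (13112 kept), scaled by TMM and fitted with edgeR 4.0.16 (R 4.3.3) by the quasi-likelihood test, with genotype as the single term and Benjamini-Hochberg adjustment over all genes kept. Groups and replicate numbers came from the sample titles. CPM used the library totals, and log2 fold changes are Ythdf2-/- over wild type. Alternatives used DESeq2 1.42.0 and limma 3.58.1, other scalings and filters, a replicate block, a term for Y-linked reads, and each library left out. Named members were those past a threshold, the 5 highest and 5 lowest fold changes, the 6 highest and 4 lowest RPKM, the Mrps18 paralogs, Mrps36, and members that share exon bases, and in the other lists genes at an unadjusted p under 0.05 and the 2 of highest RPKM. Mrpl3, Mrpl18, Mrpl27, Mrps11, Mrps12, Mrps26 and Mrps28, and the neighbors named, were chosen after their values were seen. Positions, overlaps and start regions came from RefSeq on GRCm38.p6, and GGACT was counted in the longest coding transcript of GENCODE M21. The fit was tested on simulated data. All 12 samples were mapped, 6 of them without a table used here.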

Additional observations from a re-analysis of the deposited data

How the results depend on the processing

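No member passed an adjusted p of 0.05 under any alternative, the lowest being 0.0511 in limma-voom with sample quality weights, which weighted WT 3 at 0.0957. That fit gave 2 members higher and 5 lower at an unadjusted p under 0.05 (14.7% and 13.4% of all genes), 21 above 0 and a median log2 fold change of -0.071, reversed from 0.11. Leaving out 1 library gave 16 to 71 members above 0, 0 to 6 lower at an unadjusted p, a median of -0.11 to 0.23 and a log2 ratio of summed CPM of -0.11 to 0.21 (0.09 with all, 0.035 from the deposited TPM). The 16, the 6 and both values of -0.11 came without WT 3, and the 71, the 0.23 and the 0.21 without WT 1. A term for Y-linked reads gave 4 members higher at an unadjusted p (5.23% of all genes), and limma on log2(FPKM + 1) gave 5 higher and 1 lower among 75 members (1.89% and 0.985% of all genes). With a pseudocount of 0.1, chosen for these counts after seeing the data, it gave 4 higher and 1 lower among 75 members (1.82% and 0.957% of all genes). The cause was not tested. Other scalings, filters, DESeq2 and limma-voom gave 57 to 64 members above 0, not always the same ones, with 0 at an unadjusted p. Over all genes, an adjusted p under 0.05 was reached by 0 genes in the reported fit, 31 in DESeq2 and 151 with quality weights. Of 30 named members, 20 kept their direction without WT 3, and of 29 with FPKM values 17 did on log2(FPKM + 1) and 16 on log2(FPKM + 0.1).

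The deviations of libraries with the same replicate number had correlations of -0.25, -0.24 and -0.39. Deviations within a genotype are not independent, since a library far from the others shifts the mean from which all deviate. These values therefore cannot show whether the numbers share more than a name, and a shared litter, day or batch was not tested. With the replicate block, 64 members were above 0 with a median of 0.15, 0 passed an unadjusted p, and the genes passing it fell from 476 to 183. The biological coefficient of variation was 0.332.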
